A study of Mus musculus with 8 samples.

Results

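Oxidative phosphorylation is carried out by 5 protein complexes of the inner mitochondrial membrane, and most of their subunits are encoded in the nucleus. The genes described here were chosen by symbol: every gene of the count table whose name starts with Nduf followed by a, b, c, s or v, with Uqcr, with Atp5 or with Cox4 to Cox8, or is one of the 4 Sdh genes, without names that contain -ps. This gave 92 genes of 41250 listed, of which 91 had a count in at least 1 library and 87 passed the filter on low counts and were tested. The pattern also takes in complex I assembly factors (the 7 Ndufaf genes), isoforms of complex IV subunits used mainly in other tissues, the supercomplex factor Cox7a2l, and 2 genes that share only the Atp5 name.

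RNA was sequenced from mouse splenic B cells of 4 genotypes in 2 states. Mice were wild-type or homozygous for a deletion of the 3'RR, a regulatory region whose enhancers act on the immunoglobulin heavy chain locus from its 3' end, of its hs3b and hs4 enhancers (hs3b-hs4 deletion), or of the element that the labels call 3'PAL, all on a mixed background given as 129/C58BL/6. Cells were taken fresh after a density gradient and removal of CD43-positive cells (resting), or after 48 hours with 5 µg/mL lipopolysaccharide (LPS), an activator of B cells through the receptor TLR4, and another gradient (stimulated). Each genotype and state gave 1 library from a pool of B cells of 4 animals, 8 libraries in all, so no genotype has a replicate within a state. The labels give neither the animals' ages nor whether both states came from the same animals.

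As background, complexes I and II pass electrons from NADH and succinate to coenzyme Q, complex III passes them on to cytochrome c, and complex IV reduces oxygen. Complexes I, III and IV pump protons, and the ATP synthase lets protons back to make ATP. Complexes I, III and IV and the ATP synthase each join nuclear subunits with a few encoded by mitochondrial DNA, while complex II is encoded by nuclear genes alone. Resting B cells are small and quiescent, and activation by LPS leads to growth, division and in part to antibody secretion.

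Promoters are shown for 5 genes on which the results turn: the accessory complex I genes Ndufa12 and Ndufs5, the ATP synthase gene Atp5g1, the complex II gene Sdhd, and Atp5sl, the only one of the 87 tested that was called lower after stimulation. Each run gives the 120 bases before the transcription start, 5′ to 3′ on the gene's strand, from the RefSeq promoter table for GRCm38.p6. Capitals mark matches on either strand to GCGCNTGCG, a motif of the factor NRF1, or to CCGGAAG, the ETS family motif bound by GABPA. NRF1 and GABPA are known regulators of nuclear genes for the respiratory chain.
Ndufa12 (chr10:94198915-94199034, plus strand): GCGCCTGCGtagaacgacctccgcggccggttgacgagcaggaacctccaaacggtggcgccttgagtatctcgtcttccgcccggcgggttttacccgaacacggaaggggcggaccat
Ndufs5 (chr4:123718187-123718306, minus strand): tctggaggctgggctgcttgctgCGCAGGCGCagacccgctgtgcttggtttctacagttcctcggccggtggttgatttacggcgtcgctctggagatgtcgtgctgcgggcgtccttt
Atp5g1 (chr11:96075632-96075751, minus strand): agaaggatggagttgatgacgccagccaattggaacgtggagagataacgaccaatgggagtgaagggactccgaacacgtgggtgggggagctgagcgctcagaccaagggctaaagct
Sdhd (chr9:50603850-50603969, minus strand): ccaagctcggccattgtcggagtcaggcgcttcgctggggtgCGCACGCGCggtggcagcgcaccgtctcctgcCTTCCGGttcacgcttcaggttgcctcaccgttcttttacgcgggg
Atp5sl (chr7:25619294-25619413, plus strand): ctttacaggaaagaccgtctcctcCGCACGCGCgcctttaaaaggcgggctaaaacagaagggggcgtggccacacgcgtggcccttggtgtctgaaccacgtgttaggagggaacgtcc
Atp5sl has 2 starts in the table, of which 1 is shown. For Ndufa12, Ndufs5 and Atp5g1 the counted gene starts upstream of the RefSeq start, so that the run overlaps the counted gene. The stretches before Ndufa12, Ndufs5 and Atp5sl each hold an NRF1 match, that before Sdhd holds an NRF1 and an ETS match, and that before Atp5g1 holds neither.

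The table held a promoter for 76 of the 92 genes. Over the 250 bases before the start, the NRF1 motif was found at 18 of the 76 (23.7%), against 1589 of 27025 genes with a promoter in the table (5.88%). The ETS motif was found at 13 (17.1%, against 7.83%), and AAGATGGCG, a motif of the factor YY1, at 2 (2.63%, against 0.71%). At least 1 of the 3 motifs was present at 27 (35.5%, against 13.2%), and in no case did matches to different motifs overlap. The promoters of Sdha, Cox6a1 and Ndufb4 each held 3 NRF1 matches over both strands. Overlapping matches to this 1 motif were not joined, so these need not be separate sites. After stimulation 17 of the 18 genes with an NRF1 match and all 13 with an ETS match rose, against 69 of all 76 genes with a promoter (90.8%), so that genes with a match are not set apart by these counts. These are matches of letters, and a gene without one may hold other forms of the motif.

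Total counts per library ran from 17883683 in the resting wild-type library to 28785192 in the stimulated wild-type library, and 3 counts corresponded to 0.104 to 0.154 CPM (counts scaled to a common library size, adjusted between libraries by the trimmed mean of M values). The 10 B cell markers checked, which include Cd79a and Pax5, were detected and summed to 2725 to 4130 CPM. The resting wild-type library stood apart in having the lowest total, 1.94% of its counts on the entry AY036118 (at most 0.0842% in the others) and 15.4% of its transcript-level counts on Lars2 (at most 1.7% in the others). In the resting libraries, 9 erythroid markers summed to 3163, 13431, 10689 and 21574 CPM for wild-type, 3'RR, hs3b-hs4 and 3'PAL deletion, against 430 to 555 CPM after stimulation. Of these, 8 fell, from 3068 to 21355 CPM in sum at rest to 10.6 to 242 CPM after stimulation, and the transferrin receptor gene Tfrc rose (log2 fold change 1.45) to 313 to 432 CPM. The 14 monocyte and macrophage markers summed to 394 to 1724 CPM at rest and to 13.0 to 23.7 CPM after stimulation, when C1qc had no count, and all 14 fell in the test described next. The T cell, platelet, NK cell and neutrophil markers tested (10 in all) fell in 9 cases. Of the B cell markers 8 of 10 fell, while 3 of 6 plasma cell markers rose (among them Xbp1 and Prdm1, log2 fold changes 2.32 and 2.72), 1 fell (Irf4, -0.77) and the other 2 were not called. Spn, which encodes CD43, rose (3.01). The summed levels of the erythroid, macrophage, T cell, NK cell, neutrophil and platelet lists moved in the same direction in every genotype, and their part in the changes below was not tested. RNA was measured over whole pools, so fewer cells of a type and less RNA per cell cannot be told apart.

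Nearly the whole set rose after 48 hours of LPS. The summed level of the 92 genes went from 3271, 3976, 3948 and 3865 CPM in the resting wild-type, 3'RR, hs3b-hs4 and 3'PAL libraries to 8891, 9205, 8660 and 7541 CPM in the stimulated ones, from a mean of 3765 ± 333 to 8574 ± 724 CPM (SD, n = 4 genotypes), or 2.28-fold. Every stimulated library was above every resting one. In edgeR's quasi-likelihood test with genotype as a term and Benjamini-Hochberg adjustment over all genes, 82 of 87 genes tested were higher at an adjusted p under 0.05 (35.7% of all 14744 genes tested were higher), 1 was lower (34.1% of all genes) and 4 were not called. The 82 include Cox4i2 and Cox7a1, rare isoforms that passed the filter only through their stimulated libraries. The median log2 fold change was 1.17 over the 87 genes and 0.01 over all genes tested. In 81 of the 87, every stimulated library lay above every resting library (31.8% of all genes), and in 1 every stimulated library lay below (30.3%). In stimulated cells 84 were higher than in resting cells in each of the 4 genotypes (38.6% of all genes). A fold of at least 2 between the means of the states was reached by 58 (17.9% of all genes).

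**Figure D1:**
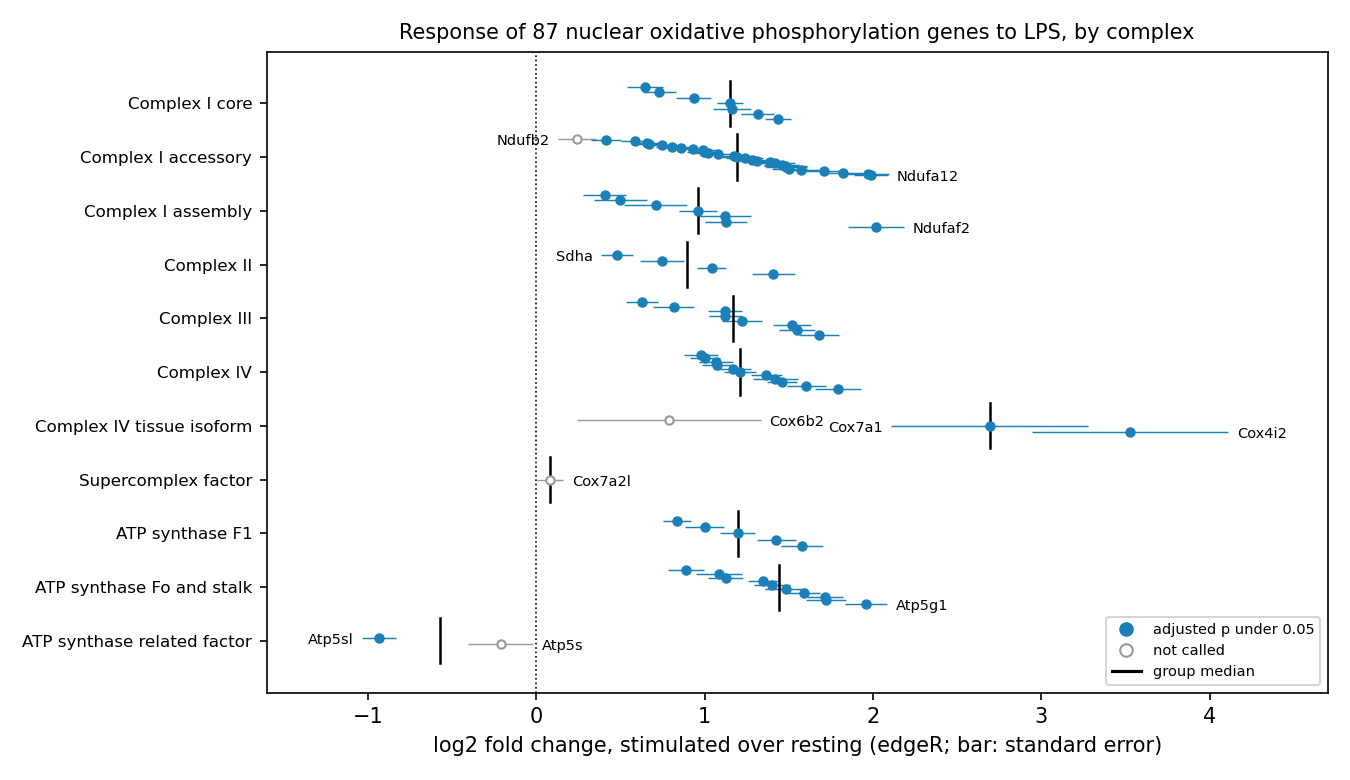
Each point is the edgeR log2 fold change of 1 gene after LPS (x axis, stimulated over resting, 4 genotypes a state) with its standard error, arranged by complex (y axis), and black bars are group medians. Filled points passed an adjusted p of 0.05. Outside the tissue isoforms the called rises run from 0.41 to 2.02, Cox7a2l, Ndufb2 and Atp5s are not called, and Atp5sl lies at -0.93.

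Complex I, the NADH dehydrogenase, accounts for the most genes. All 7 genes of the catalytic core (among them Ndufs1, Ndufs7, Ndufv1 and Ndufv2), which carry the flavin and iron-sulfur clusters, rose, with log2 fold changes from 0.65 for Ndufs7 to 1.44 for Ndufv2 and a median of 1.15. Of 29 accessory subunits, 28 rose, with a median of 1.19, and Ndufb2 was not called. Counted together, the 36 subunits summed to 874 ± 66.0 CPM at rest and 1893 ± 121 CPM after LPS (SD, n = 4), a 2.17-fold difference. The summed levels per library are drawn for each complex in the plot of sums by genotype.

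The largest rises among well-expressed genes of all complexes were led by 2 accessory subunits. Ndufa12 (10:94198955-94221443, plus strand, GRCm38) was at 16.9, 15.0, 18.1 and 17.5 CPM in the resting wild-type, 3'RR, hs3b-hs4 and 3'PAL libraries, the order used for all lists of 4 values here, and at 70.9, 67.9, 71.5 and 57.8 CPM in the stimulated ones. Its log2 fold change was 1.99 (SE 0.10, adjusted p = 7.72e-06, edgeR), with the 4 libraries of each state close together and far from the other state. Ndufs5 (4:123712710-123718202, minus strand) went from 6.97, 10.7, 4.86 and 3.91 CPM to 31.0, 36.0, 23.0 and 13.1 CPM, a log2 fold change of 1.97 (SE 0.13, adjusted p = 1.71e-05, edgeR). Here the states also did not overlap, but libraries of the same state spread widely, as taken up below. The accessory subunits Ndufb6 (10.1, 12.6, 12.6 and 12.8 CPM at rest and 47.3, 43.8, 43.3 and 36.5 CPM after LPS) and Ndufc2 (11.6, 17.8, 13.6 and 13.2 CPM at rest and 52.1, 49.0, 46.8 and 35.8 CPM after LPS) had log2 fold changes of 1.82 and 1.71. For both, the stimulated 3'PAL library was the lowest of its state. The smallest rise among the accessory subunits called was that of Ndufa6, at a log2 fold change of 0.41 (adjusted p = 0.00466, edgeR).

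All 7 complex I assembly factors, which help to build the complex without staying in it, rose as well, with a median of 0.96. Ndufaf2, named after its values were seen, went from 2.61, 3.17, 2.70 and 3.34 to 12.5, 12.6, 13.5 and 9.65 CPM, a log2 fold change of 2.02 (adjusted p = 4.22e-05, edgeR). The smallest changes were those of Ndufaf5 (0.41), Ndufaf3 (0.50) and Ndufaf6 (0.71), and these calls were not kept without both wild-type libraries. Ndufaf5 and Ndufaf3 were also not called with DESeq2 or with scaling by library size alone, and leaving out each of the other genotypes also lost 1 of these calls.

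Complex II, succinate dehydrogenase, is also an enzyme of the citrate cycle. Its 4 genes rose by unequal amounts, and their sum rose 1.76-fold, from 239 ± 19.7 to 421 ± 45.5 CPM. Sdha, the flavoprotein that oxidises succinate, changed least, at 112, 128, 126 and 119 CPM at rest and 180, 186, 169 and 144 CPM after LPS (log2 fold change 0.48, SE 0.094, adjusted p = 0.00270, edgeR). In TPM (transcript level corrected for length and library depth) Sdha was at 43.2, 84.1, 91.4 and 83.8 at rest. After LPS it was at 86.6, 79.1, 85.0 and 75.5 TPM, higher in wild-type and lower in each deletion. Sdhb, the iron-sulfur subunit, went from 39.3, 48.8, 57.6 and 50.4 to 85.0, 93.8, 81.3 and 68.8 CPM, with a log2 fold change of 0.75. The membrane anchors changed more: Sdhc went from 20.6, 27.0, 27.3 and 24.2 to 46.8, 49.7, 56.0 and 51.0 CPM (1.04) and Sdhd from 39.7, 46.7, 45.4 and 44.7 to 140, 129, 110 and 94.5 CPM (1.41). In CPM the states did not overlap in any of the 4 genes, and for Sdha, Sdhb and Sdhd the stimulated 3'PAL library was the lowest of its state. The fit does not test differences between genes.

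All 8 genes of complex III, the cytochrome bc1 complex, rose, with a median log2 fold change of 1.17 and a 2.08-fold higher sum (370 ± 39.0 to 770 ± 59.6 CPM). The small subunits Uqcr11 (1.68), Uqcrq (1.55) and Uqcr10 (1.52) had the largest log2 fold changes. The core genes Uqcrc1 and Uqcrc2 were both at 1.12, the Rieske iron-sulfur protein Uqcrfs1 at 0.82, and the hinge protein Uqcrh was lowest at 0.63. Measured per length, in TPM (transcript level corrected for length and library depth, means over the 4 libraries of a state), Uqcrh had the highest level of the whole set at rest, at 299 TPM, followed by the ATP synthase gene Atp5b at 285 TPM and Cox4i1 at 263 TPM. After LPS, Atp5b led with 760 TPM, ahead of Atp5k with 585 TPM and Cox6b1 with 534 TPM, and Uqcrh stood seventh with 467 TPM. TPM is a share of a library, and Lars2 took 15.4% of the transcript-level counts of the resting wild-type library. Resting TPM values spread widely: Uqcrh was at 151 TPM in the resting wild-type library and at 339 to 365 TPM in the other resting ones. Summed over the set, TPM was 6796 ± 2172 at rest and 15330 ± 813 after LPS (SD, n = 4).

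Complex IV, cytochrome c oxidase, was represented by 11 subunits in the forms most tissues use, and all 11 rose, by log2 fold changes from 0.98 (Cox4i1) to 1.79 (Ndufa4). Their sum went from 623 ± 58.8 to 1462 ± 117 CPM, 2.35-fold. Ndufa4, named for complex I and since assigned to complex IV, was at 25.0, 37.3, 36.0 and 35.3 CPM at rest and 120, 122, 120 and 97.6 CPM after LPS (SE 0.13 on its log2 fold change, adjusted p = 2.74e-05, edgeR). Its resting wild-type value and its stimulated 3'PAL value each lie well below the other 3 of their state. Cox4i1, a large subunit of the complex, went from 102, 124, 138 and 128 to 237, 258, 241 and 227 CPM. Cox7a2 went from 28.3, 42.2, 43.0 and 43.1 to 103, 121, 96.4 and 95.7 CPM (log2 fold change 1.42), Cox6a1 from 36.3, 49.3, 49.0 and 44.9 to 102, 113, 104 and 94.8 CPM (1.21) and Cox8a from 64.2, 77.0, 78.6 and 79.6 to 157, 177, 153 and 141 CPM (1.07). In all of them each stimulated library exceeded each resting one.

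The isoforms that replace these subunits in other tissues were rare or absent. Of the 8 genes (Cox4i2, Cox6a2, Cox6b2, Cox7a1, Cox7b2, Cox8b, Cox8c and Ndufa4l2), 3 passed the filter, and the 8 together came to 0.667 CPM at rest and 2.53 CPM after LPS. Cox8b had no count in any library, and Cox7b2 and Cox8c had 1 count each in all. Cox4i2, an isoform of Cox4i1 known from lung and low oxygen, had 2, 1, 0 and 1 counts at rest and 15, 11, 6 and 27 after LPS, and Cox7a1, the heart and muscle isoform of Cox7a2, had 5, 4, 2 and 2 and then 20, 19, 6 and 72. Both were called higher (log2 fold changes 3.53 and 2.69, SE 0.58 and 0.58, adjusted p = 0.00117 and 0.00445, edgeR). They passed the filter on low counts only through their stimulated libraries, so these calls are no separate support for a rise. Neither passed the filter when genotype was left out of the fit, so that they were not tested there. Cox6a2, the muscle isoform of Cox6a1, had 1, 6, 3 and 3 counts at rest and 3, 5, 2 and 23 after LPS and was not tested. In Cox4i2, Cox7a1 and Cox6a2 alike, the stimulated 3'PAL library held the most counts. Cox6b2, known from testis, was not called (log2 fold change 0.79, adjusted p = 0.232, edgeR), and passed the filter with at most 18 counts in a library.

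Cox7a2l, which links complexes III and IV into supercomplexes, was the one gene named Cox, outside the rare isoforms, that was not called after stimulation. It was at 126, 174, 146 and 151 CPM at rest and 137, 184, 147 and 164 CPM after LPS (log2 fold change 0.08, SE 0.078, adjusted p = 0.362, edgeR), and the states overlapped. Per length its mean stood at 186 TPM at rest and 194 TPM after LPS, while that of Cox4i1 stood at 263 and 486 TPM. The genotypes differed behind this mean: Cox7a2l was at 102, 254, 199 and 188 TPM at rest and 175, 213, 175 and 213 TPM after LPS. In CPM its genotypes kept 1 order in both states, with 3'RR highest, then 3'PAL, hs3b-hs4 and wild-type. In TPM this order did not hold at rest, where hs3b-hs4 (199 TPM) lay above 3'PAL (188 TPM).

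Of the 5 complexes, the ATP synthase had the largest rise by summed level. The 5 genes of the F1 head, where ATP is made, went from 784, 949, 932 and 912 CPM to 2578, 2543, 2451 and 2002 CPM, 2.68-fold between the means. The catalytic subunit Atp5b and its partner Atp5a1, named after their values were seen, carried most of its counts: Atp5b went from 310, 368, 369 and 355 CPM to 1161, 1114, 1076 and 851 CPM (log2 fold change 1.58) and Atp5a1 from 298, 359, 362 and 354 to 980, 977, 954 and 783 CPM (1.43). The smallest change in F1 was that of Atp5d, at a log2 fold change of 0.84. The 10 genes of the membrane part and stalk all rose, with the highest median of the groups of more than 3 genes tested (1.44) and a 2.62-fold higher sum. Atp5j2 went from 28.6, 41.8, 37.2 and 33.9 to 126, 130, 109 and 101 CPM (1.72) and Atp5k from 22.3, 34.1, 32.6 and 29.6 to 92.1, 111, 101 and 83.6 CPM (1.71).

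Atp5g1, Atp5g2 and Atp5g3 encode the same mature subunit c of the proton-driven ring with different import sequences. Atp5g1 rose most, from 21.6, 29.7, 33.5 and 27.1 CPM to 111, 118, 121 and 84.5 CPM (log2 fold change 1.96, SE 0.13, adjusted p = 1.63e-05, edgeR). Atp5g3 went from 41.7, 53.7, 56.7 and 58.2 to 151, 151, 159 and 125 CPM (1.48) and Atp5g2 from 53.7, 67.3, 78.9 and 72.9 to 120, 135, 134 and 113 CPM (0.89, SE 0.11, adjusted p = 2.34e-04, edgeR). Per length, Atp5g2 was the highest of the 3 in both states, at 196 and 359 TPM, while Atp5g1 was the lowest, at 60.0 and 250 TPM. In the stimulated libraries the 3'PAL value was the lowest for each of the 3 genes.

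Atp5sl and Atp5s carry the Atp5 name but do not encode subunits of the enzyme proper. Atp5sl (7:25619414-25625551, plus strand), since renamed Dmac2 for a part in building the membrane arm of complex I, was at 46.2, 47.8, 47.0 and 46.2 CPM at rest, almost the same in all genotypes, and fell to 20.2, 26.5, 24.2 and 27.8 CPM. Its log2 fold change was -0.93 (SE 0.10, adjusted p = 1.29e-04, edgeR), it was lower in all 4 genotypes, and the states did not overlap. After stimulation its lowest value was in the wild-type library. Atp5s, a factor thought to act on ATP synthase coupling and named after its values were seen, was at 2.10, 2.54, 2.97 and 3.05 and 2.44, 2.01, 2.49 and 2.25 CPM and was not called (log2 fold change -0.21, adjusted p = 0.358, edgeR).

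**Figure D2:**
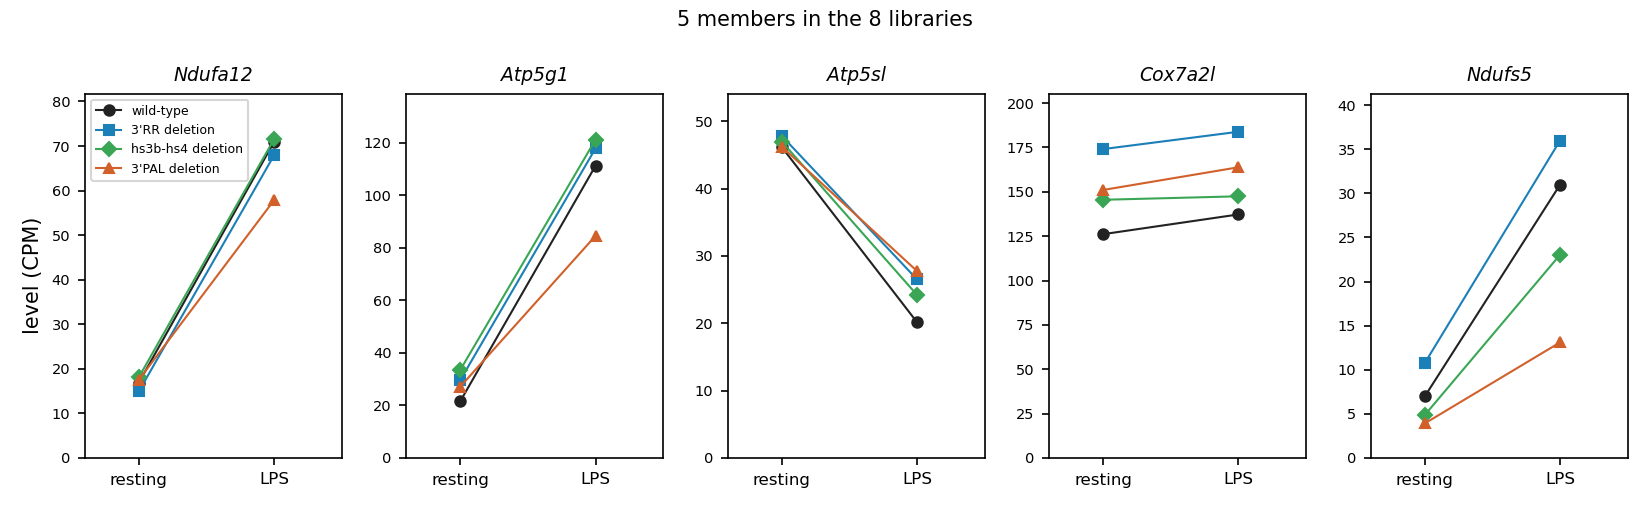
Level in CPM (y axis, starting at 0) of 5 genes in the resting and LPS-stimulated library of each genotype (x axis), 1 library a point, lines joining the states of a genotype. Ndufa12 and Atp5g1 rise in all genotypes, Atp5sl falls, Cox7a2l stays level with its genotypes in 1 order, and Ndufs5 rises in all genotypes, with libraries of the same state spread widely.

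Genes of related mitochondrial pathways, taken from lists of known members, changed as follows in the same test. Of 12 tested subunits encoded by mitochondrial DNA, 1 was higher (mt-Nd6, log2 fold change 0.99) and none lower, with a median of 0.25, and their summed level was 8850, 6922, 5767 and 9456 CPM at rest and 9077, 9046, 8204 and 8747 CPM after LPS, so that the states overlapped. The gene mt-Nd6 lies on the other strand from its neighbours, and no source used here gives the strand setting of the counting. The counted levels of these subunits were very unequal. Alone, mt-Co1 was at 3625 to 5661 CPM, while mt-Co2, mt-Co3 and mt-Atp6 were at 1.16 to 8.02 CPM. Whether the gene counts hold all reads of these genes was not tested. The 5 further nuclear partners outside the name rule all rose, among them cytochrome c (Cycs, 1.77) and cytochrome c1 of complex III (Cyc1, 1.55). Of 31 tested assembly factors of complexes II to V, 20 rose and 4 fell, and of 7 further complex I assembly factors 5 rose. The mitochondrial ribosome, which makes the mitochondrially encoded subunits, had 75 of 76 genes higher and none lower, with a median of 1.12. Of 13 genes for the copying and transcription of mitochondrial DNA and handling of its RNA 8 rose, led by Slirp (1.79). In the citrate cycle 15 of 17 rose (Cs, citrate synthase, 1.08) and among carriers and import factors 13 of 15 (Timm50, 1.56). Coenzyme Q synthesis was split, with 8 of 12 higher (Coq7, 1.57) and 4 lower (Adck3, -2.51, and Coq10b, -1.67). Of 9 regulators 4 rose and 4 fell: Gabpa, which encodes the ETS factor named above, rose by a log2 fold change of 0.54, while Esrra and Myc fell by 0.56 and 2.09.

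**Figure D3:**
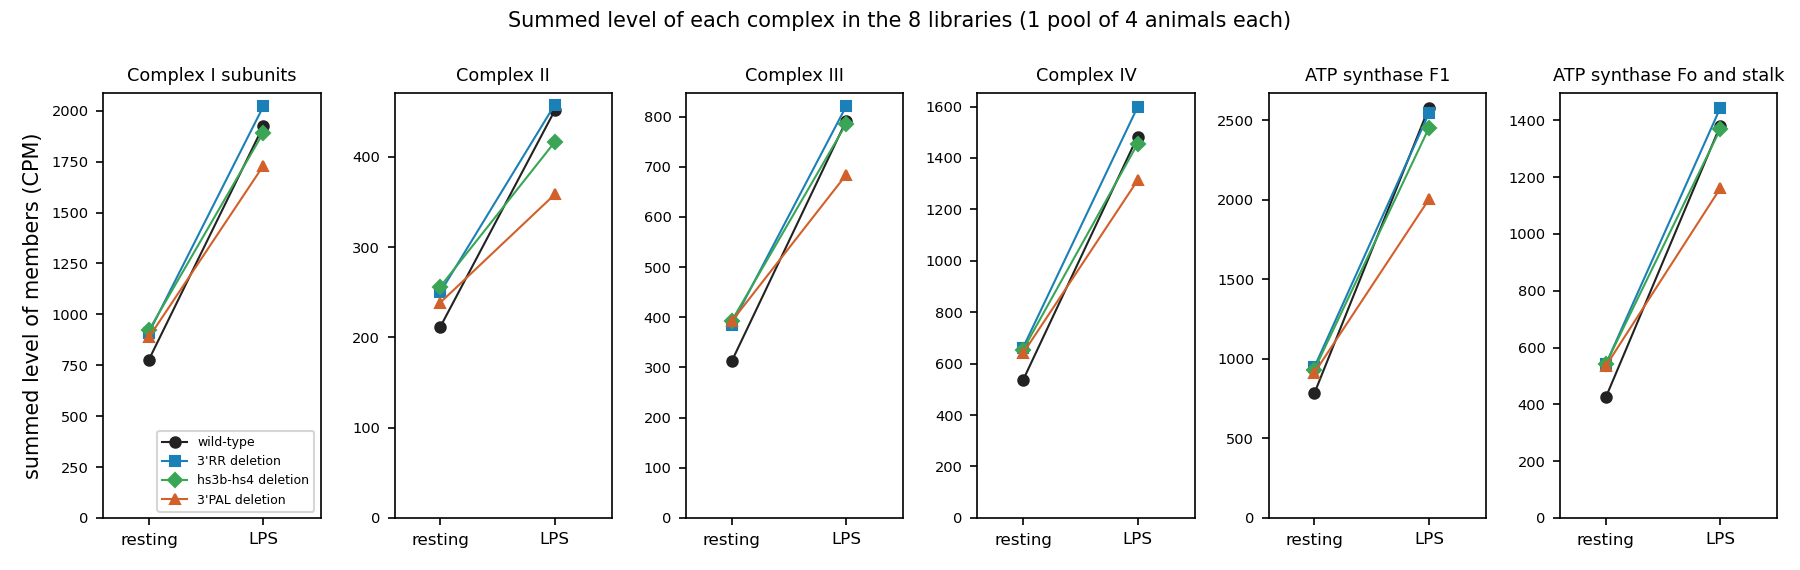
Summed CPM of the genes of each complex (y axes, starting at 0 and scaled per panel) in the resting and LPS-stimulated library of each genotype (x axis), 1 library a point. All sums rise in all genotypes, the wild-type library is the lowest at rest in each panel and the 3'PAL library is the lowest after LPS.

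The size of the rise differed between genotypes in these libraries. The median log2 ratio of stimulated over resting over the 87 genes was 1.39 for wild-type, 1.14 for 3'RR, 1.08 for hs3b-hs4 and 0.93 for 3'PAL, while over all genes tested it lay between -0.00 and 0.03. Wild-type had the largest of the 4 ratios for 69 genes (32.3% of all genes tested) and 3'PAL the smallest for 61 (31.7%). At rest, wild-type was the lowest of the 4 libraries for 69 of the 87 (33.2% of all genes), and after stimulation 3'PAL was the lowest for 70 (33.4%) and 3'RR the highest for 48 (25.9%). The resting wild-type library is the one that stands apart in depth, AY036118 and Lars2, and the part of these in its low values was not tested. With scaling by library size alone the count of genes lowest in the resting wild-type library was 51. The share of all genes was not worked out under that scaling, so this count cannot be set against the 33.2%. With 1 library for each genotype and state, genotype cannot be told apart from the single pool.

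**Figure D4:**
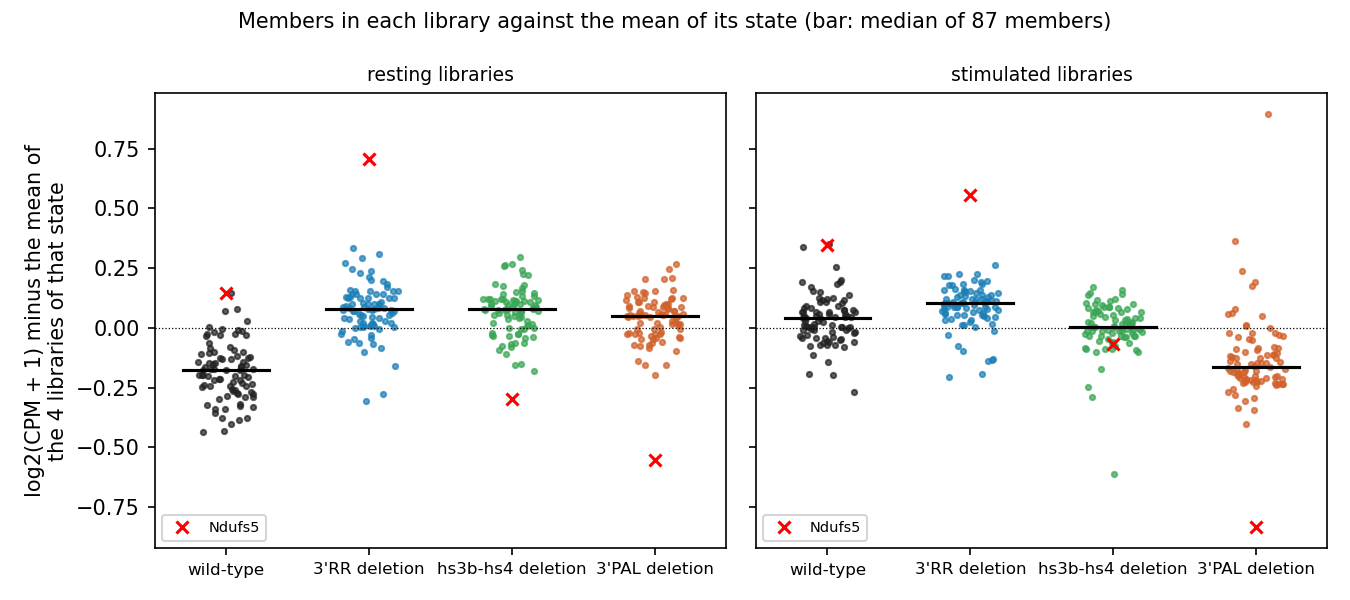
Each point is 1 of 87 genes, placed by its log2(CPM + 1) minus the mean of the 4 libraries of that state (y axis), for each genotype (x axis) in resting (left) and stimulated (right) libraries, with bars at the medians. The resting wild-type median lies at -0.18 and the stimulated 3'PAL median at -0.17, and Ndufs5 (red crosses) is lowest in the 3'PAL library in both panels.

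Each mutant was compared with wild-type over both states in the same fit, and no gene of the set passed an adjusted p of 0.05 in any of the 3 comparisons. For the 3'RR deletion, 0.922% of all genes tested were higher and 1.04% lower, and the set's median log2 fold change was 0.17 (0.05 over all genes), with 5 genes higher (9.05% of all genes) and none lower (4.57%) at an unadjusted p under 0.05. For the hs3b-hs4 deletion, 0.0746% of all genes were higher and 0.0678% lower, and the set's median was 0.11 (0.04 over all genes), with 1 gene higher (5.22% of all genes) and 1 lower (3.62%) at an unadjusted p under 0.05. For the 3'PAL deletion, 0.346% of all genes were higher and 0.19% lower, and the median was 0.01 (0.02), again with 1 gene higher (6.22%) and 1 lower (3.14%) at an unadjusted p under 0.05. Without the resting wild-type library the 3 medians were 0.02, -0.02 and -0.12. The comparisons share the wild-type libraries. In each, the resting and the stimulated library of a genotype stood in as its replicates. The p-values therefore do not measure spread between animals or pools of a genotype. DESeq2 called 1 gene of the set for the 3'RR deletion (3.68% of all genes) and 1 for the 3'PAL deletion (1.74%), and none for the hs3b-hs4 deletion (1.19%).

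The gene behind the 3'PAL result was Ndufs5, an accessory subunit of complex I that faces the intermembrane space. From the values given above, it was lowest in the 3'PAL library and highest in the 3'RR library in both states. Relative to wild-type, the 3'PAL library held 0.561 times the CPM at rest (95% exact conditional binomial interval 0.427 to 0.734) and 0.423 times after LPS (0.374 to 0.478), and the hs3b-hs4 library 0.697 (0.543 to 0.895) and 0.744 times (0.668 to 0.827). The 3'RR library held 1.54 (1.26 to 1.90) and 1.16 times (1.06 to 1.28) the wild-type level. These intervals cover counting error between single libraries only, and reads without molecular identifiers are not independent molecules. Over both states the log2 fold change of 3'PAL over wild-type was -1.06 (SE 0.18, adjusted p = 0.0697, edgeR), short of the threshold. It passed in edgeR without the filter on low counts (-1.06, adjusted p = 0.0110, with 1.25% of all genes called), in DESeq2 (-1.09, adjusted p = 0.000980) and in edgeR on kallisto's estimated counts (-1.33, adjusted p = 0.0257). The share of all genes called on kallisto's counts is not given here.

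Cox7a2l was the gene called by DESeq2 for the 3'RR deletion. The 3'RR library held 1.38 times the wild-type level at rest (1.31 to 1.45) and 1.34 times after LPS (1.284 to 1.398), on the order of libraries described above. In edgeR its log2 fold change of 3'RR over wild-type was 0.44 (SE 0.11, adjusted p = 0.115), and in DESeq2 it was 0.43 (adjusted p = 0.00869).

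Genotypes that lack the hs3b and hs4 enhancers (3'RR and hs3b-hs4 deletion) were also set against those that keep them (wild-type and 3'PAL deletion), with 2 libraries a group and different genotypes standing in as replicates. No gene of the set and no other gene was called by edgeR at rest, after stimulation or for the difference in response (0% of all genes tested). Without the filter on low counts edgeR called 71 genes at rest (0.283%) and 8 after stimulation (0.0319%), with scaling by library size it called 1 after stimulation, and DESeq2 called 76 (0.637%) and 7 (0.0279%). None of these calls was of the set, and none was made for the difference in response. At an unadjusted p under 0.05, 5 genes of the set were higher at rest (4.56% of all genes, with none lower against 1.22%), 1 was higher after stimulation (1.25%, with none lower against 1.4%), and 1 was lower for the difference in response (1.63%, with none higher against 0.407%). The set's medians were 0.14 at rest (0.04 over all genes), 0.11 after stimulation (0.02) and -0.03 for the difference in response (-0.02). Single libraries moved these medians. The median at rest was 0.03 without the resting wild-type library and 0.23 without the resting 3'PAL library. The median after stimulation was 0.26 without the stimulated wild-type library, 0.03 without the 3'PAL library and 0.05 without the 3'RR library of that state. The median of the difference in response ran from -0.13 without either 3'PAL library to 0.10 without the stimulated wild-type library, and was 0.09 without the resting one.

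Within a state there is no test, and a size rule was used: a log2 ratio of CPM + 1 of at least 0.5 against the wild-type library and at least 10 CPM in the higher one. At rest 10 of 87 genes passed as higher in the 3'RR library (11.5%, against 6.44% of all genes), 11 in the hs3b-hs4 library (12.6%, against 4.56%) and 3 in the 3'PAL library (3.45%, against 3.69%). None passed as lower, against 2.18%, 2.26% and 2.02% of all genes. Ndufa4, Cox7a2, Ndufa2, Atp5e, Atp5k and Uqcr11 passed in both the 3'RR and the hs3b-hs4 library, which share the wild-type library they were compared with. After stimulation Ndufaf4 passed as lower in the 3'RR library (1.15%, against 1.69% of all genes) and none as higher (against 3.85%). None passed in the hs3b-hs4 library in either direction (1.32% of all genes higher, 1.31% lower). For 3'PAL none passed as higher (against 4.68%) and 4 passed as lower in the 3'PAL library (4.6%, against 4.08%). These 4 were Ndufs5, Ndufaf4, Sdhd and Ndufc2, at 0.423, 0.643, 0.676 and 0.688 times the wild-type CPM. Ndufaf4, an assembly factor, was at 16.4, 13.4, 17.6 and 20.4 CPM at rest and 46.8, 31.8, 39.5 and 30.1 CPM after LPS, with the stimulated wild-type library above the other 3.

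The deposited transcript estimates allowed each gene to be counted in a second way, by summing kallisto's estimated counts over its transcripts. Many of these small genes are known to have processed pseudogenes, with which reads can be shared in either count. The median ratio of this sum to the gene count over 87 genes was 1.00 to 1.01 in every library. Ndufb2, the accessory subunit not called above (6:39592574-39603382, plus strand), departed from this, with ratios of 1.73, 1.94, 1.87 and 1.81 at rest and 3.07, 3.49, 3.25 and 2.86 after LPS. By gene count it was at 9.27, 8.38, 9.87 and 8.83 and 12.5, 9.70, 10.5 and 10.5 CPM (log2 fold change 0.24, adjusted p = 0.0942, edgeR), and by kallisto at 19.5, 20.3, 22.5 and 19.7 and then 51.1, 44.8, 44.6 and 40.7 CPM (1.14, adjusted p = 5.05e-05). In the GENCODE annotation of GRCm38 the predicted gene Gm42420 overlaps Ndufb2 on the same strand and the antisense gene Gm16272 overlaps its start. The level of Ndufb2 is therefore given as uncertain, and the part of these overlaps in the gap between the counts was not tested.

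Ndufa12 departed from the median ratio by genotype. Its ratio of kallisto sum to gene count was 1.08 and 1.04 in the resting and stimulated 3'RR libraries and 0.381 to 0.476 in the other 6. The gene counts of the 4 genotypes were alike, as given above, whereas kallisto's sums were 9.82, 20.1, 8.43 and 9.12 CPM at rest and 37.8, 93.2, 43.9 and 31.7 CPM after LPS. On these sums the 3'RR deletion over wild-type gave a log2 fold change of 1.18 (adjusted p = 0.0215, edgeR), against -0.12 (SE 0.14, adjusted p = 0.787) on gene counts. How many of all genes were called on such sums is not given here. Most of the difference lay in ENSMUST00000179990, a transcript of 566 bases, with estimated counts of 93.8, 390, 108 and 130 at rest and 765, 1662, 779 and 607 after LPS. The 2 counts thus differ on whether the 3'RR libraries stand apart, and which of them holds the level of the gene was not tested. The rise after stimulation was present in every genotype by both counts.

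**Figure D5:**
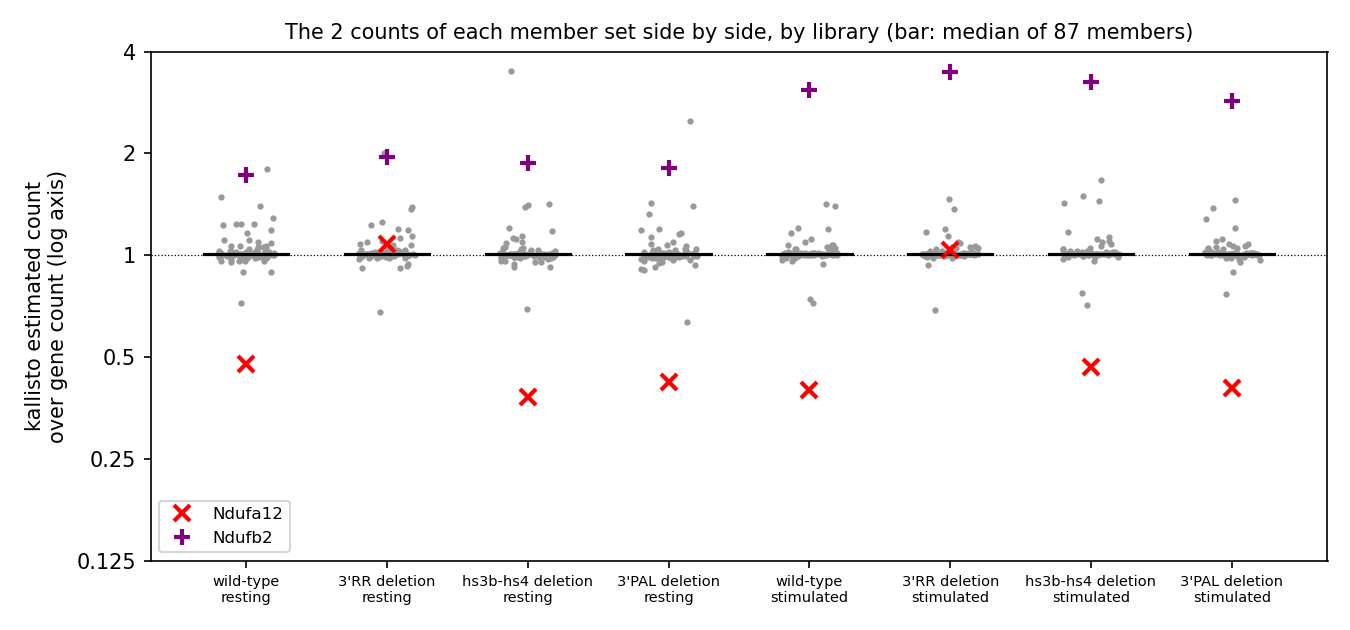
Ratio of kallisto's summed estimated count to the gene count (y axis, log scale) for each of 87 genes (grey points) in the 8 libraries (x axis), with bars at the medians. Ndufa12 (red) lies near 1 in both 3'RR libraries and between 0.381 and 0.476 in the others, and Ndufb2 (purple) lies higher after LPS than at rest.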

How the data were processed

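RNA was sequenced from 8 libraries, 1 for each of 4 genotypes in 2 states, as rRNA-depleted stranded paired-end libraries per the labels. The table per gene holds raw counts deposited by the authors, and 2 transcript tables hold estimated counts and TPM deposited by the authors. STAR 2.4.0a, featureCounts of Subread 1.4.6-p1, kallisto 0.42.3, SAMtools, bedtools and the build GRCm38 (mm10) are named in the submitters' processing notes. Neither the annotation version nor the strand setting is given in the sources used here, nor whether fragments or reads were counted. In the table of TPM the names over the annotation columns are shifted, and the sample columns were taken by their own names.

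An entry without a gene name (0.0062 to 0.034% of counts) and 92 spike-in entries with no count were left out. Counts were scaled by TMM (factors 0.925 to 1.09) in edgeR 4.0.16 under R 4.3.3, filtered with filterByExpr (14744 genes left) and tested by quasi-likelihood in a model of genotype plus state (3 residual degrees of freedom and a biological coefficient of variation of 16.0%). Genotypes lacking and keeping hs3b-hs4 were tested in a fit with 4 groups (4 residual degrees of freedom, 25.8%). Adjustment was by Benjamini-Hochberg over all tested genes at a threshold of 0.05, and standard errors are the log2 fold change divided by the root of the test statistic. With pooled animals and 1 library a group, p-values for stimulation rest on how much the response differs between genotypes. Differences in level between genotypes are taken up by the genotype terms. For a mutant over wild-type, the resting and stimulated libraries of a genotype stand in as replicates. Those p-values do not measure spread between animals or pools of a genotype. The procedure was tested on simulated counts.

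The genes, complex groups, pathway and marker lists, promoter motifs and alternatives were chosen with earlier results of these data known. Values in all libraries are given for the 8 largest rises and all falls whose mean log2 CPM reached 4 and whose direction was shared by all genotypes, for the isoform families and Sdh genes, and for genes called in a mutant comparison. They are also given for Ndufaf2, Ndufaf4, Ndufb2, Atp5b, Atp5a1 and Atp5s, which fall outside this rule and were named after their values were seen. At most 3 genes a pathway list are named, those with the lowest adjusted p. The markers Cd79a, Pax5, C1qc, Tfrc and Spn and the genes mt-Co1, mt-Co2, mt-Co3 and mt-Atp6 fall outside that rule and were chosen after their values were seen. Promoters come from the RefSeq table for GRCm38.p6, and for 63 of 75 genes checked the bases after the start lay in a GENCODE transcript of the gene. Alternatives were scaling by RLE, by library size, by TMM after the filter or without AY036118, Lars2 and 11 globin entries, no filter, DESeq2 1.42.0, kallisto's estimated counts summed per gene and rounded, other pseudocounts, no minimum level, no genotype term, and leaving out libraries.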

Additional observations from a re-analysis of the deposited data

Results flagged for a closer look

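In 12 of 77 groups of 4 libraries (the 4 libraries of a state, for sums and for genes named) 1 library lay apart from the other 3 by the gap criterion used. Chance meets this criterion in about 1 in 20 independent groups. These groups are not independent, since sums, their parts and single genes come from the same libraries. Some genes were also named after their values were seen, so 12 of 77 cannot be set against that rate. In 9 of the 12 it was the resting wild-type library that lay below. This held for the sum of all 92 genes (3271 CPM, others 3865 to 3976), of the ATP synthase membrane part and stalk (424 CPM, others 535 to 542), of the complex I core (229 CPM, others 263 to 270) and of complex III (312 CPM, others 385 to 393). It also held for Ndufb6 (10.1 CPM, others 12.6 to 12.8), Ndufa4 (25.0 CPM, others 35.3 to 37.3), Cox7a2 (28.3 CPM, others 42.2 to 43.1), Cox8a (64.2 CPM, others 77.0 to 79.6) and Atp5a1 (298 CPM, others 354 to 362). That library also had the lowest total count, 1.94% of counts on AY036118 and 15.4% of transcript-level counts on Lars2, and the part of these was not tested.

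The stimulated 3'PAL library lay apart for 3 genes. It was below the others for Ndufa4 (97.6 CPM, others 120 to 122) and Atp5a1 (783 CPM, others 954 to 980), and above them for the muscle isoform Cox6a2 (0.807 CPM from 23 counts, others 0.0802 to 0.189 CPM).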

How the results depend on the processing

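Stimulation called 83 genes of the set, and 80 to 84 under the alternatives run. Without the genotype term, which pairs the 2 states of a genotype as a replicate block, 81 were called and the median log2 fold change was 1.15. The median ran from 1.05 without both wild-type libraries to 1.28 with kallisto's counts (1.17 as reported). Over the 87 genes and 12 alternatives (1044 values), 1031 kept direction and side of the threshold and none reversed. Another 10 lost the call (Ndufaf3, Ndufaf5 and Ndufaf6), Ndufb2 passed with kallisto's counts (1.14), and Cox4i2 and Cox7a1 were not tested without the genotype term. The comparisons of genotypes depend more on the processing, and the cause was not tested. For the 3'RR deletion over both states 1 gene instead of 0 was called with DESeq2 (Cox7a2l) and 1 with kallisto's counts (Ndufa12), and for the 3'PAL deletion 1 (Ndufs5) without the filter, with DESeq2 and with kallisto's counts. The calls with kallisto's counts stand here without the share of all genes called in that setting. Over all genes tested, 290, 21 and 79 were called for the 3'RR, hs3b-hs4 and 3'PAL deletion, 657, 189 and 313 without the filter, 526, 181 and 256 with DESeq2, and 124, 6 and 3 without the resting wild-type library. Genes past the size rule at rest went from 10 to 4 (library size) and 3 (pseudocount 5 CPM) for 3'RR, from 11 to 7 (library size), 7 (RLE) and 4 (pseudocount 5 CPM) for hs3b-hs4, and from 3 to 0 (library size), 6 (kallisto), 5 (pseudocount 0.1 CPM) and 5 (no minimum) for 3'PAL. After stimulation they went from 1 to 2 (kallisto) and 0 (pseudocount 5 CPM) for 3'RR and from 0 to 1 (kallisto) for hs3b-hs4. Genes lowest in the resting wild-type library numbered 51 (library size) to 71 (69 as reported), and those lowest in the stimulated 3'PAL library 61 to 71 (70). For the size rule and the lowest library, shares of all genes were worked out only for the processing as reported. Depth limits the rare isoforms most, with at most 72 counts in a library.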
